A study of Mus musculus with 69 samples.

Results

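Mosaic gastruloids are aggregates of mouse embryonic stem cells of more than one genotype that model the early embryo, and cell competition is the process by which fitter cells in such a mixture outlast less fit neighbours. The comparison described here is that of wild-type (WT) cells at 72 h by the genotype of the cells beside them. WT-mCherry cells sorted from WT + p53KO gastruloids (3 libraries) were set against WT-mCherry cells sorted from WT + WT gastruloids (3 libraries), and these 6 libraries are all the libraries of the series that the labels assign to WT-mCherry cells at 72 h, out of 69 in all. The labels assign the libraries to the groups, and all genes that passed a filter on low counts were compared.

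Both groups carry the same clone, E14Tg2A embryonic stem cells with an H2B-mCherry reporter and intact Trp53, and both were aggregated in the same way and given a pulse of the GSK3 inhibitor CHIR99021, which activates Wnt signalling, between 48 and 72 h. The neighbours were cells with an H2B-emiRFP670 reporter, either wild type or a subclone with a homozygous frameshift in Trp53, which encodes the tumour suppressor p53. Each neighbour genotype was thus 1 clone. Gastruloids of the WT + WT kind were seeded with 150 cells of each colour, whereas WT + p53KO gastruloids were seeded with 150 WT-mCherry and 25 p53KO-emiRFP cells. The genotype of the neighbour, the number of neighbours and the size of the gastruloid therefore cannot be told apart in this comparison. The same gastruloids also gave the neighbour libraries, so that 12 libraries of 72 h, 3 in each of 4 populations, entered 1 fit. Counts are of bulk RNA, in which fewer cells of a type and less RNA per cell cannot be told apart.

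The pathways that the comparison touches are well known. Naive pluripotency is the state of embryonic stem cells before implantation, held by factors such as Esrrb, Klf4 and Zfp42, and cells lose it as they pass through a formative state towards the primitive streak. The integrated stress response lowers general translation when amino acids, protein folding or other supplies fail, and switches on genes of amino acid supply through the factor Atf4. The Hippo pathway restrains the coactivators Yap1 and Wwtr1, which act with Tead factors on genes such as Ccn1 and Ccn2 and respond to cell density and tension.

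The 12 libraries held between 44049258 and 62464271 counts, and mitochondrial genes took between 0.791% and 1.49% of them, the highest share being in WT-mCherry beside WT replicate 2. Trp53 checked the labels: its normalised read count, the count divided by a library size factor, was 15406, 17421 and 15792 in WT-mCherry beside p53KO and 16346, 18528 and 16344 in WT-mCherry beside WT, against 1562 to 1916 in the p53KO-emiRFP libraries. H2bc14, a histone gene with 7459 to 10386 normalised counts in the emiRFP libraries, had 41.1, 162 and 51.2 in WT-mCherry beside p53KO and 52.5, 106 and 48.0 in WT-mCherry beside WT. Set against the emiRFP library of the same gastruloids, these counts would correspond to 0.486% to 2.08% and 0.506% to 1.10% of emiRFP RNA in the sorted cells, with the highest value of both groups in replicate 2. Subtracting that share of the emiRFP library left 400 of the 402 genes reported next past the threshold. Pou5f1, a core pluripotency factor, had a mean of 30892 ± 1385 beside p53KO and 29418 ± 2007 beside WT (SD, n = 3), and T, the transcription factor that defines the primitive streak, had 42273 ± 5865 and 40940 ± 3808. Both groups of libraries thus held pluripotency and streak transcripts.

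WT cells differed in expression according to their neighbours, with small changes in both directions. Of 17714 genes tested, 402 passed an adjusted p of 0.05 by edgeR's quasi-likelihood test with Benjamini-Hochberg adjustment (2.27%), 205 of them higher beside p53KO (1.16%) and 197 lower (1.11%). The called changes had a median size of 0.35 on the log2 scale, and 8 genes reached a log2 change of 1, 7 of them lower. The fit held replicate number as a block, because the study made each replicate as a separate experiment. Libraries of both WT-mCherry groups that share a number also deviated together. Between WT-mCherry and emiRFP libraries this was weak in replicate 1, with correlations of 0.0514 to 0.165. They were 0.183 to 0.498 in replicates 2 and 3. Without the block 99 genes passed (0.559%), 41 higher and 58 lower, and all of them were among the 402. Of the 62 called genes picked by the naming rule (the largest changes, the leading members of each list and fixed markers), the 21 that also passed without the block were Itih5, Ablim3, Mef2b, Clic5, Slc38a3, Chrna4, Chac1, Vldlr, Myl9, Fgfbp1, Tcl1, Nr0b1, Pde8a, Cnn2, Notch4, Mcl1, Prdm14, Nr5a2, Sox2, Tfap2c and Gdf3, and the calls of the other 41 rest on the block. The groups did not overlap in 371 of the 402 called genes and in 15.2% of all genes tested.

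The number of calls depended on the libraries kept. Without all libraries of replicate 2, 12 genes were called, all among the 402. Of the 62 named calls, 7 passed in that fit: Chac1, Vldlr, Fgfbp1, Nr0b1, Cnn2, Ccn2 and Sox2. The other 55 were lost, among them Tcl1, Mef2b, Myl9, Gdf3 and Nr5a2. Without replicate 1 there were 90 calls, 87 of them among the 402, and without replicate 3 there were 397, of which 265 were (65.9% of the 402), with 3 residual degrees of freedom in each of these fits. Without single WT-mCherry libraries beside p53KO, 174, 131 and 204 genes were called for replicates 1, 2 and 3, of which 167, 130 and 197 were among the 402. Without those beside WT, 185, 176 and 505 were called, of which 167, 166 and 315 were. No called gene changed sign in any of these fits. The plot of fold change against expression shows that the called genes spanned most of the expression range and that all but 8 of them lay within 1 unit of 0.

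**Figure D1:**
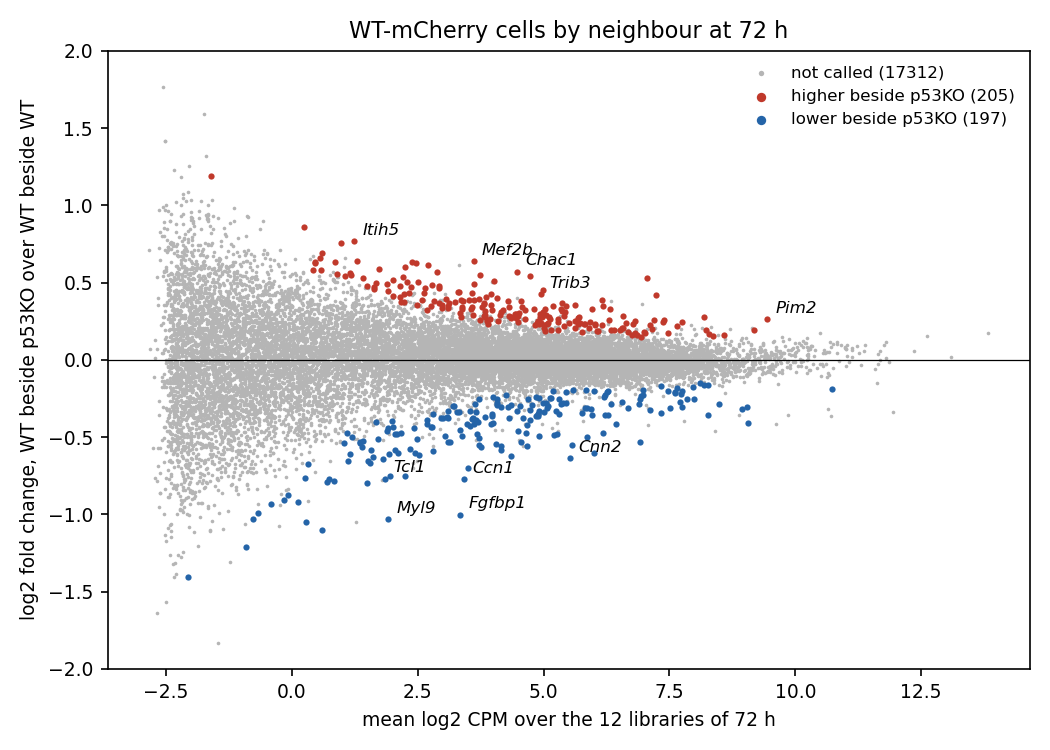
Log2 fold change of every tested gene in WT-mCherry cells at 72 h, beside p53KO over beside WT, plotted against mean log2 CPM (counts scaled to library size). Red points are the 205 genes called higher, blue points the 197 called lower and grey points genes that were not called; above a mean of 1 log2 CPM, Itih5 is the largest called rise and Myl9 the largest called fall.

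Genes of naive pluripotency were lower beside p53KO. Of the 20 members of this list, 12 fell and 0 rose, beside 1.11% of all tested genes called lower and 1.16% called higher. The median log2 fold change was -0.41 against 0.00 over all tested genes. Of the 20 estimates 18 were below 0, against 8612 of all 17714. Tcl1, an activator of Akt signalling found in embryonic stem cells, had normalised read counts of 187, 188 and 198 beside p53KO and 334, 324 and 319 beside WT. All 3 libraries beside p53KO were thus well below all 3 beside WT, and the log2 fold change was -0.77 ± 0.08 (SE; adjusted p = 0.000512, edgeR). Nr0b1, a nuclear receptor of the pluripotency network, had 532, 596 and 627 beside p53KO and 968, 830 and 1050 beside WT. The groups did not overlap, and Nr0b1 fell by 0.70 ± 0.09 on the log2 scale (adjusted p = 0.00146, edgeR). Prdm14, a repressor that protects the naive state and is needed for germ cells, had 57.3, 58.4 and 63.0 beside p53KO and 108, 106 and 90.8 beside WT. These are low counts that did not overlap, with a log2 fold change of -0.76 ± 0.15 (adjusted p = 0.0150, edgeR). Nr5a2, a nuclear receptor that can sustain Pou5f1 expression, had 826, 834 and 1004 beside p53KO and 1396, 1246 and 1343 beside WT, a log2 fold change of -0.59 ± 0.07 (adjusted p = 0.000866, edgeR).

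The other called members of the naive list fell by less. Zfp42, the classical stem cell marker Rex1, had a mean of 3804 ± 178 beside p53KO and 5284 ± 336 beside WT, a log2 fold change of -0.47. Log2 fold changes were -0.49 for Fbxo15, -0.48 for Klf5, -0.44 for Klf4, -0.38 for Manba, -0.36 for Dppa5a, -0.34 for Tdh and -0.31 for Esrrb, and the groups of these genes did not overlap. Dppa3, Klf2, Tet2, Tfcp2l1 and Socs3 had estimates of -0.48 to -0.24 and were not called. Nanog, Gbx2 and Tbx3, whose groups overlapped, had estimates of -0.06, 0.08 and 0.04. Nanog, a central factor of the naive network, had 11525, 12101 and 11570 beside p53KO and 12536, 12339 and 11808 beside WT (log2 fold change -0.06 ± 0.04, adjusted p = 0.561, edgeR). Without the replicate block 10 of the 12 falls passed, Klf5 (adjusted p = 0.162) and Klf4 (adjusted p = 0.0606) being lost. Without replicate 2 the falls numbered 3.

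Primordial germ cell markers, a list that shares Prdm14 with the naive list, held 2 falls among 10 members, beside 1.11% of all tested genes called lower. The median log2 fold change of the list was -0.35. Beside Prdm14 the call was Tfap2c, a transcription factor of germ cells and trophoblast, with 800, 812 and 955 beside p53KO and 1319, 1083 and 1394 beside WT. The groups did not overlap and Tfap2c fell by 0.56 ± 0.07 on the log2 scale (adjusted p = 0.00168, edgeR).

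Markers of the formative and primed states moved in both directions. Of 19 members tested, 3 rose and 2 fell, beside 1.16% of all tested genes called higher and 1.11% called lower, and the median was 0.05. Fgf5, a growth factor of the formative epiblast, had 2145, 2401 and 1894 beside p53KO and 1749, 1872 and 1449 beside WT. The lowest library beside p53KO was just above the highest beside WT, and the log2 fold change was 0.35 ± 0.06 (adjusted p = 0.00939, edgeR), a call that was lost without the block (adjusted p = 0.487). Pim2, a kinase that promotes survival and growth, rose by 0.26 ± 0.05 although its groups overlapped, and Sall2, a zinc finger factor, rose by 0.19. Both calls were lost without the block, with adjusted p of 0.505 for Pim2 and 0.223 for Sall2. Sox2, a factor of both pluripotent and neural cells, had 4560, 4591 and 4812 beside p53KO and 6452, 5366 and 6895 beside WT. All libraries beside p53KO were lower, and Sox2 fell by 0.42 ± 0.05 (adjusted p = 0.00164, edgeR). Otx2, a factor of the formative and anterior epiblast, had a log2 fold change of 0.09 ± 0.07 (adjusted p = 0.637, edgeR).

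Genes of the integrated stress response were higher beside p53KO. Of 27 members, 10 rose and 0 fell, beside 1.16% of all tested genes called higher and 1.11% called lower. The median log2 fold change was 0.17, and 23 of 27 estimates were above 0, against 9102 of all 17714. Chac1 encodes an enzyme that degrades glutathione and is a sensitive target of the pathway, at chr2:119351242-119354326 of GRCm38.p6. It had normalised read counts of 1146, 1192 and 1078 beside p53KO and 790, 799 and 711 beside WT, and the groups were far apart. The log2 fold change of Chac1 was 0.57 ± 0.06, or 1.49-fold (adjusted p = 0.000445, edgeR). Vldlr, a lipoprotein receptor, had 1545, 1379 and 1556 beside p53KO and 1042, 948 and 1081 beside WT. Replicate 2 was the lowest library of both groups, and within each pair the difference was alike, giving 0.54 ± 0.05 (adjusted p = 9.25e-05, edgeR). Ddit3, the transcription factor Chop, had 1180, 1245 and 895 beside p53KO and 734, 861 and 725 beside WT. The lowest library beside p53KO was only just above the highest beside WT, and the log2 fold change was 0.51 ± 0.07 (adjusted p = 0.00221, edgeR). Trib3, a pseudokinase that is a target of Chop, had 1611, 1786 and 1483 beside p53KO and 1270, 1237 and 1122 beside WT, a log2 fold change of 0.43 ± 0.05 (adjusted p = 0.00146, edgeR).

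The remaining rises of the list were smaller and included enzymes of serine and sulphur amino acid synthesis. Pck2, a mitochondrial enzyme of phosphoenolpyruvate synthesis, had a log2 fold change of 0.33 and Stc2, a secreted glycoprotein, of 0.32. Ddit4, an inhibitor of mTORC1, rose by 0.28, Cbs of the transsulphuration pathway by 0.24, and Psat1 and Phgdh of serine synthesis by 0.20 and 0.17. Not every target moved: Asns, the asparagine synthetase, had 15311 ± 679 beside p53KO and 15538 ± 501 beside WT (log2 fold change -0.02 ± 0.05). Atf4 itself had 12457 ± 160 and 11072 ± 443, groups that did not overlap but with an adjusted p of 0.196. Without the replicate block 2 of the 10 rises passed, Chac1 (adjusted p = 0.0238) and Vldlr (adjusted p = 0.00492), and these were also the 2 that passed without replicate 2. The rises numbered 5 without replicate 1, 6 without replicate 2 of WT-mCherry beside p53KO and 6 without replicate 2 of WT-mCherry beside WT. The p53KO-emiRFP neighbours themselves differed from WT-emiRFP cells in these transcripts in both directions, with a list median of 0.62. Called log2 differences were 1.66 for Chac1, 1.19 for Trib3 and 0.67 for Vldlr, but -1.02 for Ddit4 and -0.90 for Cbs, and that of Ddit3 was 0.13 and was not called (adjusted p = 0.167, edgeR). After subtraction of the emiRFP RNA estimated from H2bc14 the log2 fold changes in WT-mCherry cells were 0.56 for Chac1, 0.42 for Trib3, 0.54 for Vldlr and 0.51 for Ddit3, all still past the threshold.

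**Figure D2:**
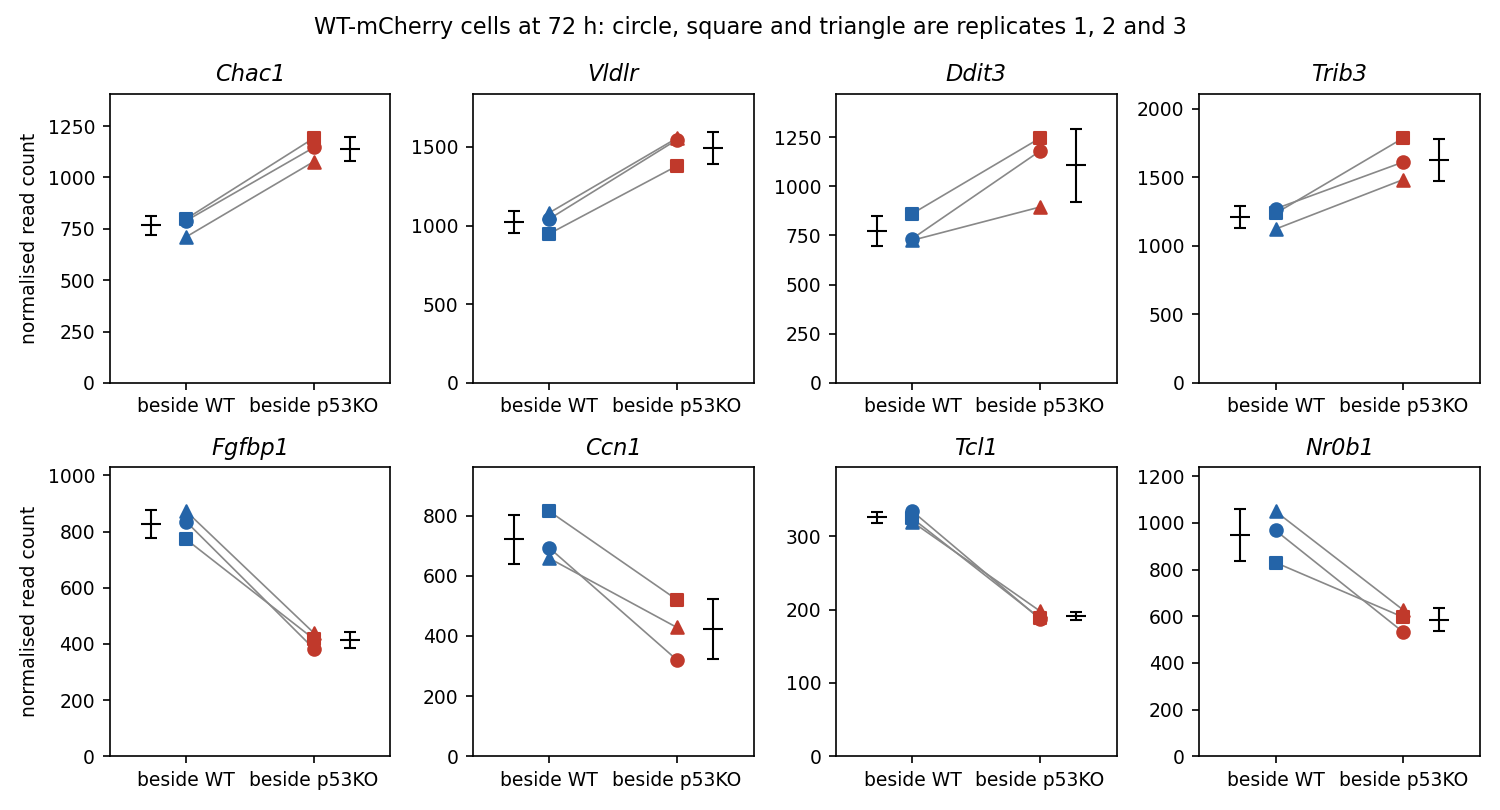
Normalised read counts of 8 genes in the 6 WT-mCherry libraries of 72 h. Circles, squares and triangles are replicates 1, 2 and 3, grey lines join libraries of the same number, and black marks beside the points are the mean ± SD (n = 3); Chac1, Vldlr, Ddit3 and Trib3 were higher and Fgfbp1, Ccn1, Tcl1 and Nr0b1 lower in every library beside p53KO than in any library beside WT.

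Since Atf4 and its C/EBP partners bind a composite element, the promoters of the called stress response genes are shown with the letters TGATGNAA searched on both strands, in 300 bases from 250 before to 50 after each RefSeq start. The letters were found for 4 of the 10 called members, 7 of the 23 listed members with a promoter sequence, and 2.72% of the 12315 tested genes with one. The motif was chosen with the calls known, and a match describes letters and not binding. The 250 bases before the start of Chac1, chr2:119350992-119351241 on the plus strand of GRCm38.p6 (RefSeq), read as follows, with the match, on the opposite strand, in capitals.

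Chac1: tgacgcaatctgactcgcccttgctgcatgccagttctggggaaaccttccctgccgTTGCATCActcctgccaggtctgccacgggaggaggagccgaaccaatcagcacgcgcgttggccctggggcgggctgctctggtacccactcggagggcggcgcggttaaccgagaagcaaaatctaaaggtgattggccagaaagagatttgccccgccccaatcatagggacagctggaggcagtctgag

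The 30-base windows around the matches of Vldlr (chr19:27216809-27216838) and Pck2 (chr14:55540152-55540181), both on the plus strand, are given in the same way to show the shared letters. Vldlr has more than one start in RefSeq, and its window lies before a downstream start and inside the gene as annotated from its first start (chr19:27216480-27254231). The 4th match, that of Trib3, lay after its start.

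Vldlr: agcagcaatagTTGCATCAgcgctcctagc

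Pck2: agccttcaaagTTACATCAgtatcttacag

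Fgfbp1, Myl9 and Cnn2, which belong to growth factor supply and the actin cytoskeleton, were among the largest falls. Fgfbp1, a secreted protein that releases fibroblast growth factors from the matrix, at chr5:43978858-43981828, had 383, 417 and 439 beside p53KO and 835, 772 and 872 beside WT. The level beside p53KO was 0.499 times that beside WT (log2 fold change -1.0 ± 0.07, adjusted p = 2.41e-05, edgeR). Myl9, a regulatory light chain of myosin II, had 119, 118 and 112 beside p53KO and 215, 230 and 271 beside WT. The libraries beside p53KO lay close together, and Myl9 fell by 1.03 ± 0.12 (adjusted p = 0.000883, edgeR). Cnn2, the actin-binding protein calponin 2, had 1614, 1886 and 1861 beside p53KO and 2575, 2877 and 2871 beside WT, a log2 fold change of -0.64 ± 0.06 (adjusted p = 0.000129, edgeR).

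Of 19 YAP/TEAD members tested, 4 fell and 0 rose, beside 1.11% of all tested genes called lower and 1.16% called higher. The median of the list was 0.02 and 11 of the 19 estimates were above 0. Ccn1, a secreted matrix protein and classical Yap1 target, had 320, 520 and 428 beside p53KO and 693, 814 and 658 beside WT. Its groups did not overlap, and Ccn1 fell by 0.77 ± 0.11 (adjusted p = 0.00213, edgeR). Ccn2, its relative, had 698, 981 and 840 beside p53KO and 1151, 1472 and 1247 beside WT, a log2 fold change of -0.62 ± 0.07 (adjusted p = 0.000684, edgeR). In both genes replicate 2 was the highest library of each group. Amotl2 and Ajuba, binding partners of the pathway and targets of Yap1, each fell by 0.36. Yap1 and Wwtr1 had log2 fold changes of -0.05 and 0.05 and were not called. All 4 falls were lost without the replicate block, with adjusted p of 0.0665 for Ccn1, 0.132 for Ccn2, 0.111 for Amotl2 and 0.130 for Ajuba, and 1 of them, Ccn2, passed without replicate 2.

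The letters GGAATG, the core of the site that Tead factors bind, were searched in the same promoters on both strands. They were found for all 3 of the called members with a promoter sequence (Ccn1, Amotl2 and Ajuba), for 11 of the 15 listed members with one and for 14.6% of tested genes. This motif too was chosen with the calls known, for a list of genes of the same pathway, and a match describes letters and not binding. The windows of Ccn1 (chr3:145650070-145650099, minus strand) and Amotl2 (chr9:102717728-102717757, plus strand) are shown, with the match, on the opposite strand, in capitals. The start used for Amotl2 lies inside the gene as annotated (chr9:102717091-102733418), so that its window does too.

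Ccn1: gcgccaaccaaCATTCCtgagatgtttgag

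Amotl2: tgaaactctcaCATTCCtggcatagcagcc

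Single ligands and targets of the patterning pathways were called, beside 2.27% of all tested genes. Without the block 1 FGF call and 1 Nodal call passed and 0 Wnt calls did. In the FGF list, 25 genes, Fgf5 rose, and Fgfbp1 and Fgf4 fell. Fgf4, the main FGF of the early epiblast, had 605, 819 and 612 beside p53KO and 828, 1032 and 966 beside WT, and fell by 0.48 ± 0.08 (adjusted p = 0.00570, edgeR; 0.188 without the block). Of 14 Nodal pathway genes, Gdf3 and Tdgf1 fell. Gdf3, a ligand that works with Nodal, had 1088, 1169 and 1089 beside p53KO and 1487, 1544 and 1567 beside WT, a clear separation (log2 fold change -0.46 ± 0.07, adjusted p = 0.00268, edgeR). Tdgf1, the Nodal coreceptor Cripto, fell by 0.23 ± 0.04, with overlapping groups. Of 28 Wnt pathway genes, Wnt6 and Ccnd1 fell, and 0 of 20 BMP pathway genes were called. Wnt6, a Wnt ligand, had 177, 191 and 263 beside p53KO and 294, 254 and 542 beside WT, so that its groups overlapped and replicate 3 stood above the others of its group (log2 fold change -0.75 ± 0.14, adjusted p = 0.0112, edgeR; 0.223 without the block).

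Of 24 genes of the primitive streak and nascent mesoderm, 1 was called, beside 2.27% of all tested genes. The call was Cdx4, a posterior homeobox factor. It had 115, 97.9 and 177 beside p53KO and 205, 160 and 288 beside WT, overlapping groups in which each pair differed in the same direction (log2 fold change -0.75 ± 0.09, adjusted p = 0.00136, edgeR; 0.314 without the block). The log2 fold changes of T, Eomes and Mixl1, which mark the streak and its derivatives, were 0.04, 0.15 and -0.03, none of them called. Pax6, a transcription factor of the neural list, fell by 0.91, and 0 of 13 endoderm genes were called. Cdh1 and Cdh2, the epithelial and mesenchymal cadherins, had log2 fold changes of 0.08 and -0.05, and neither was called. In the adhesion list of 28 genes only Sparc, a matrix protein, was called, with a fall of 0.35, again beside 2.27% of all tested genes.

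**Figure D3:**
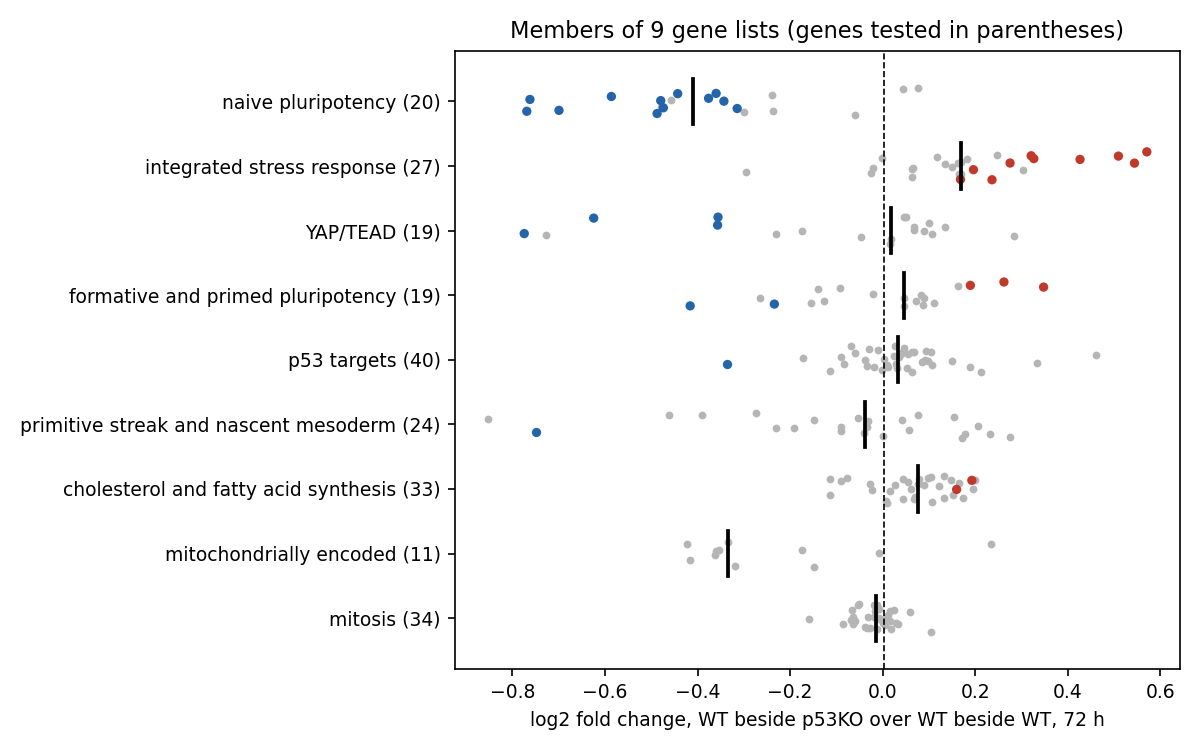
Log2 fold change of each tested member of 9 gene lists in WT-mCherry cells at 72 h, beside p53KO over beside WT. Grey points are not called, coloured points are called, black bars mark list medians and the dashed line marks the median of all tested genes; the naive list is centred at -0.41 and the integrated stress response list at 0.17.

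Targets of p53 were called in WT cells at a share near the 2.27% of all tested genes. Of 40 targets, 0 rose and 1 fell, with a median log2 fold change of 0.03. The fall was Plk3, a stress-responsive kinase, by 0.34 ± 0.07 (adjusted p = 0.0209, edgeR; 0.133 without the block). Cdkn1a, the cell cycle inhibitor p21, had 15025, 14615 and 14564 beside p53KO and 15286, 14398 and 14169 beside WT, overlapping groups with a log2 fold change of 0.01 ± 0.04. Mdm2, the ubiquitin ligase that limits p53, had a log2 fold change of 0.04 ± 0.04, and those of Ccng1 and Eda2r were 0.03 and 0.04. In the p53KO-emiRFP neighbours the median of the same list was -1.86 relative to WT-emiRFP cells.

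Single genes of apoptosis were called, beside 1.16% of all tested genes called higher and 1.11% lower. Of 22 pro-apoptotic genes tested, 1 rose, Hrk, which encodes a BH3-only protein. It had 353, 367 and 321 beside p53KO and 263, 225 and 267 beside WT, a log2 fold change of 0.46 ± 0.11 (adjusted p = 0.0477, edgeR; 0.127 without the block). Of 9 survival genes tested, 1 fell: Mcl1, a Bcl2 relative that restrains apoptosis. Mcl1 had 8700, 8925 and 9529 beside p53KO and 10579, 10663 and 12517 beside WT, groups that did not overlap (log2 fold change -0.31 ± 0.04, adjusted p = 0.00268, edgeR; 0.0493 without the block). Bbc3 and Pmaip1, the p53-responsive killers Puma and Noxa, had log2 fold changes of 0.00 and -0.11.

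Growth and cell cycle genes were likewise called at shares near the 2.27% of all tested genes or not at all. Mycn fell by 0.27 ± 0.06 (adjusted p = 0.0321, edgeR), the one call among 51 genes of ribosome biogenesis and Myc targets, whereas Myc, which is central to cell competition in the epiblast, had 1873, 2176 and 1961 beside p53KO and 2045, 2478 and 1946 beside WT, overlapping groups (log2 fold change -0.10 ± 0.05, adjusted p = 0.362, edgeR). Of 36 DNA replication genes 1 fell (Ccnd1, shared with the Wnt list), of 34 mitosis genes 0 were called, and of 7 inhibitors of cyclin-dependent kinases 0 were called. Estimates were below 0 for 40 of the 51 ribosome biogenesis and Myc genes (median -0.04), 30 of the 36 DNA replication genes (median -0.05) and 22 of the 34 mitosis genes (median -0.01), against 8612 of all 17714 genes. Among metabolic genes, Slc2a3, a glucose transporter, fell by 0.32 and Pdk1 by 0.22, and Aldoc rose by 0.29, in a list of 40 with 2 calls each way that also holds Ddit4. The lipid enzymes Fads2 and Scd1 rose by 0.19 and 0.16 among 33 genes of sterol and fatty acid synthesis. Mitochondrially encoded genes had a median of -0.34, and 10 of 11 estimates were below 0, but 0 were called. Their share of counts was 0.874%, 0.875% and 1.06% beside p53KO and 1.02%, 1.49% and 1.09% beside WT, and whether RNA quality plays a part was not tested.

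Above a mean expression of 1 log2 CPM, the largest rises beyond these groups were in genes of varied function. Itih5, which encodes a hyaluronan-binding secreted protein, had 137, 141 and 122 beside p53KO and 100, 66.9 and 67.3 beside WT, and rose by 0.77 ± 0.15 (adjusted p = 0.0140, edgeR). Mef2b, a transcription factor of the MADS box family, had 616, 747 and 593 beside p53KO and 405, 443 and 408 beside WT, well separated groups (log2 fold change 0.64 ± 0.08, adjusted p = 0.00108, edgeR). Clic5, Slc38a3 and Chrna4, which encode a chloride channel family protein, a glutamine transporter and a nicotinic receptor subunit, rose by 0.63, 0.61 and 0.60. The remaining named rises were Ablim3, Fam57b, Trim66, Fat3, Slc41a3, Aqp3, C1qtnf6 and Arhgef6, with log2 fold changes of 0.54 to 0.64. The remaining named falls were Irgm1, an interferon-inducible GTPase, by 0.80, and Pde8a, Ryr3, Htr1b, Folr1 and Notch4, by 0.63 to 0.67. In the remaining lists Nlrc5, a regulator of MHC class I genes, rose by 0.56 and Ddx58, the RNA sensor Rig-I, fell by 0.33 among 24 antiviral genes tested, Hmox1, haem oxygenase, rose by 0.19 among 16 oxidative stress genes, and Elmo1, a partner in the uptake of dead cells, rose by 0.23 among 21 genes of phagocytosis. These single calls stand beside the 2.27% of all tested genes, and all 4 were lost without the block, with adjusted p of 0.162 for Nlrc5, 0.0573 for Ddx58, 0.401 for Hmox1 and 0.124 for Elmo1. Thy1, a surface protein of fibroblasts and other cells, was the single call among 13 extraembryonic and feeder markers tested, with 557 ± 70.2 beside p53KO and 427 ± 67.2 beside WT (SD, n = 3) and a rise of 0.39 (adjusted p = 0.0178, edgeR; 0.299 without the block). Of 19 immediate early genes, which respond within minutes to a stimulus such as dissociation, 0 were called and 18 had estimates below 0, with a median of -0.11. Of the 30 lists, 8 held no called member.

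The difference between the p53KO-emiRFP and WT-emiRFP neighbours, measured in other libraries of the same gastruloids, was far wider, with 6900 genes called of 17714 (39%). Of the 205 genes that rose in WT cells beside p53KO, 49 were called higher and 102 lower in p53KO-emiRFP cells, and of the 197 that fell, 54 were called higher and 60 lower. Chac1, Vldlr, Trib3 and Mef2b were higher in both contrasts, while Clic5, which rose beside p53KO, had a log2 difference of -0.87 between the neighbours. Tcl1, Nr0b1 and Prdm14 were lower in both, with differences of -0.71, -0.71 and -1.01 between the neighbours, whereas Sox2, Fgf4 and Nr5a2 were not called there.

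At other times the same comparison gave other values. Fits of 24 libraries at 48 and 72 h, and at 72 and 96 h, tested the difference itself, which was called for 123 genes between 48 and 72 h (0.663% of 18561) and for 350 between 72 and 96 h (1.87% of 18755), both counts being 0 without the block within each time. They were 0 and 48 without replicate 2, 21 and 149 without replicate 1, and 64 and 208 without replicate 3. Stress response genes had a median log2 fold change of 0.01 at 48 h, 0.17 at 72 h and 0.24 at 96 h. The Chac1 contrast was 0.08 ± 0.05 at 48 h, 0.57 ± 0.06 at 72 h and 0.85 ± 0.08 at 96 h, and the rise from 48 to 72 h was 0.49 (adjusted p = 0.00228, edgeR), while that from 72 to 96 h was 0.28 and was not called (adjusted p = 0.239, edgeR). That of Vldlr was 0.05, 0.54 and 0.57 (difference from 48 to 72 h 0.49, adjusted p = 0.00228, edgeR). Naive genes had a median of -0.34 at 48 h, -0.41 at 72 h and -0.21 at 96 h. Nanog, which was not called at 72 h, had a contrast of -0.44 ± 0.04 at 48 h (difference 0.38, adjusted p = 0.00202, edgeR).

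Some of the falls at 72 h were smaller on both sides. The Fgfbp1 contrast was -0.32 ± 0.09 at 48 h, -1.0 ± 0.07 at 72 h and -0.42 ± 0.07 at 96 h, and both differences were called (adjusted p = 0.00734 and 0.00140, edgeR). Myl9 had contrasts of -0.30, -1.03 and -0.03 and Fgf4 of 0.01, -0.48 and 0.03, with both differences called. Cdkn1a and Mdm2 had contrasts near 0 at 48 and 72 h and of 0.42 and 0.40 at 96 h, and both were called between 72 and 96 h (adjusted p = 0.000269 and 0.00414, edgeR). The share of emiRFP RNA estimated from H2bc14 was 1.48% to 3.57% beside p53KO and 0.391% to 1.20% beside WT at 96 h, and 0.299% to 0.410% and 0.534% to 0.722% at 48 h. Its part in the differences between times was not tested.

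**Figure D4:**
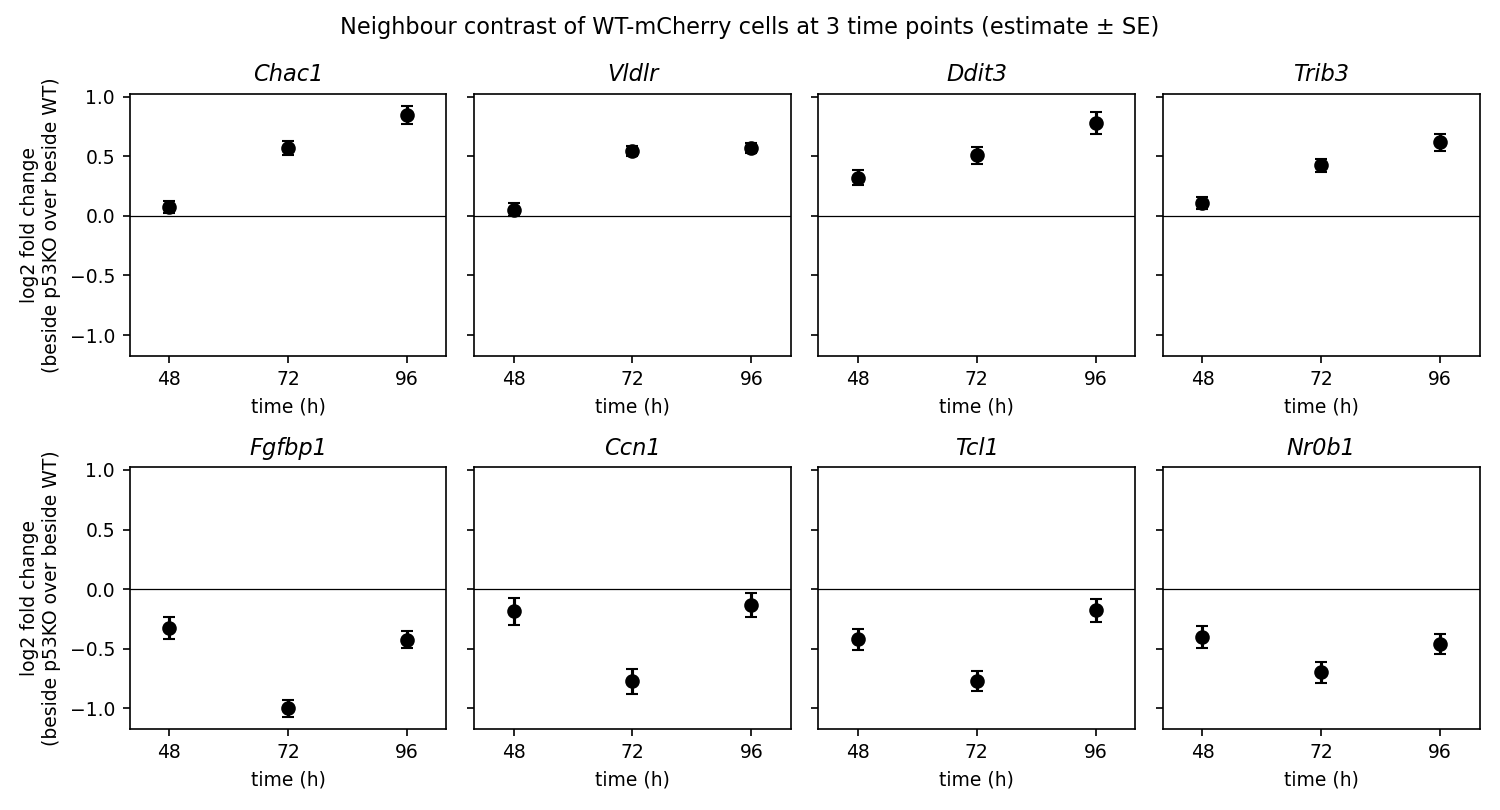
Log2 fold change, beside p53KO over beside WT, in WT-mCherry cells at 48, 72 and 96 h for 8 genes, with the SE of the fit (3 libraries per group and time). The Chac1 contrast was 0.08, 0.57 and 0.85, with the step from 72 to 96 h not called (adjusted p = 0.239), whereas that of Fgfbp1 was largest in size at 72 h.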

How the data were processed

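Bulk polyA RNA was sequenced from fluorescence-sorted cells (sort purity was not checked after sorting). The deposited values are raw read counts per gene symbol, which the authors made by trimming (Trim Galore 0.6.7), aligning to GRCm38.p6 with STAR 2.7.11b and counting unique reads; the strand setting is not given in the sources used here, so antisense and overlapping genes may share reads.

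Counts were fitted with edgeR 4.0.16 in R 4.3.3 (quasi-likelihood, 12 libraries of 72 h, replicate block, 6 residual degrees of freedom, filterByExpr, Benjamini-Hochberg threshold 0.05) with median-of-ratios size factors over all 69 libraries. SE is the log2 fold change divided by the square root of F. The 2 WT-mCherry populations correlated at 0.390 to 0.450 between libraries of the same number after group means were removed (13436 genes with a mean count of 50 or more). Between other numbers the values were -0.309 to -0.0998. Deviations from a group mean sum to 0, so values below 0 there follow from those above 0 and add no separate evidence. The pairing comes from the study's separate experiments. The block was shared by all 4 populations, among which pairs of equal number gave values of 0.0514 to 0.574. An exact test of 3 against 3 could not go below p = 0.1. The members and the 30 gene lists were chosen with earlier results of these data known. Named genes were the 15 largest rises and 15 largest falls past the threshold (mean log2 CPM of at least 1, same direction in all pairs), up to 4 called members of each list (otherwise the 2 most abundant), and fixed marker genes. Other list members are given as values. Alternatives were TMM, DESeq2 1.42.0, no filter, no block, 6 libraries only, a fold minimum, subtraction of emiRFP RNA and left-out libraries.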

Additional observations from a re-analysis of the deposited data

Results flagged for a closer look

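The neighbour contrast of several named genes differed between times when the difference itself was tested (edgeR, adjusted p below the threshold, 24 libraries with the replicate number as a block within each time); without that block no difference passed. From 48 to 72 h the log2 contrast moved up by 0.59 for Mef2b, 0.80 for Clic5, 0.49 for Chac1, 0.49 for Vldlr, 0.35 for Trh, 0.32 for Trib3, 0.37 for Aldoc, 0.31 for Elmo1, 0.37 for Thy1 and 0.38 for Nanog. It changed by -0.74 for Myl9, -0.68 for Fgfbp1, -0.39 for Plk3, -0.34 for Sox2, -0.33 for Gdf3, -0.48 for Fgf4, -0.46 for Mycn, -0.31 for Amotl2, -0.32 for Ajuba and -0.33 for Sparc.

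From 72 to 96 h the log2 contrast moved up by 0.88 for Clic5, 1.00 for Myl9, 0.58 for Fgfbp1, 0.82 for Irgm1, 0.64 for Ccn1, 0.59 for Tcl1, 1.12 for Wnt6, 0.76 for Pde8a, 0.67 for Cnn2, 0.82 for Prdm14, 0.63 for Fgf5, 0.46 for Pim2, 0.44 for Tdgf1, 0.44 for Krt8, 0.50 for Fgf4, 0.28 for Pdk1, 0.41 for Cdkn1a, 0.33 for Amotl2, 0.77 for Sparc, 0.37 for Mdm2, 0.81 for Otx2 and 0.41 for Mixl1. It changed by -0.60 for Eomes. Otx2, Cdkn1a, Mdm2, Krt8, Eomes and Mixl1 were not called at 72 h itself.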

How the results depend on the processing

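All 402 calls kept their sign under each alternative in which the gene was tested. The count of genes called was 395 under TMM (184 higher, 211 lower), 473 with DESeq2 (364 of the 402 among them, with 4 of 62 named calls lost) and 424 or 421 after subtracting emiRFP RNA estimated from H2bc14 or H2bc7. It was 895 without the low-count filter (424 higher, 471 lower), 618 with only the 6 WT-mCherry libraries (322 lower), and 8 (1 higher, 7 lower) with a log2 fold change of at least 1, which left 0 of the naive, stress response and YAP/TEAD calls. The causes were not tested. Without the replicate block 99 genes passed (41 higher, 58 lower), with 2 stress response rises and 0 YAP/TEAD falls, and the differences between times numbered 0 at 48 to 72 h (1101 genes at an unadjusted p under 0.05 by edgeR) and 0 at 72 to 96 h (1204). Without the low-count filter the stress response rises numbered 17. Leaving out libraries gave 12 to 505 genes (2 to 253 higher, 10 to 252 lower), 3 to 14 naive falls, 2 to 15 stress response rises and 1 to 6 YAP/TEAD falls. The differences between times then numbered 0 to 64 (0 without replicate 2, with 1270 genes at an unadjusted p under 0.05) and 48 to 208. Among these fits the fewest calls came without replicate 2. Of the 62 called genes picked by the naming rule, 21 passed without the block and 7 without replicate 2.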
